A study of Homo sapiens with 6 samples.

Results

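Germline and meiosis genes were followed in human embryonic stem cells that were either in the primed state or had been converted to the naive state. The set was a fixed list of 39 genes of the piRNA pathway, the synaptonemal complex, the meiotic axis and cohesin, meiotic recombination and germ cell regulation, taken by gene name. Of these, 38 had rows among the 48183 gene names of the count table, and SPO11, the enzyme that makes meiotic DNA breaks, was not analysed here. Counts of identifiers sharing a name were summed, which joined 8 identifiers for MSH5 and 2 each for PIWIL1 and MEIOB.

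Bulk RNA-seq libraries of 4 naive and 2 primed samples were compared. All carried the EOS reporter, a GFP gene under the distal OCT4 enhancer, in 1 human embryonic stem cell line that the labels name H1 and the study's methods name H9. The primed libraries were 1 of the EOS line (primed EOS) and 1 of the CA-p38 EOS line (primed CA-p38), both without naive induction. The CA-p38 EOS line also holds a doxycycline-inducible, constitutively active p38 kinase from a transposon vector. When that line was made, doxycycline was given to switch on mCherry, and mCherry-positive cells were purified. The naive libraries were 2 of cells induced from the EOS line with AICAR, an activator of AMPK (AICAR 1 and AICAR 2, 14 days of induction and 14 or 15 further passages, in an order that is not stated). Another was induced from the EOS line with the histone deacetylase inhibitor valproic acid (VPA, 9 days and 12 passages), and the last from the CA-p38 EOS line with doxycycline (CA-p38, 7 days and 12 passages). The days are those before the passages were counted and not the length of treatment. The study describes doxycycline as given for less than the 7 days, and AICAR as continued at a lower dose for a time after the first passage. By the labels, naive cells grew in PXGL medium on mouse embryonic fibroblasts, though the study also kept CA-p38 naive cells without feeders for a time and does not say which culture gave that library. They were sorted as CD75+ and SUSD2+ cells before RNA extraction. Primed cells grew without feeders in StemFit medium and no sort of them is stated, so state, medium, any feeders and sorting cannot be told apart in any comparison of the 2 states. Nothing states that the libraries of a state came from separate conversions, so p-values measure the spread between these libraries. This spread includes the induction method in the naive group and the parental line in both groups.

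Germ cells shield their genome with the piRNA pathway, in which PIWI proteins loaded with small RNAs silence transposons with the help of Tudor domain proteins and RNA helicases. In meiosis, chromosomes condense on an axis of cohesins and HORMA domain proteins, DNA breaks are repaired by recombination, and the synaptonemal complex zips homologous chromosomes together. Many of these genes have CpG-rich promoters that carry DNA methylation in somatic cells, and naive human stem cells are known for low DNA methylation. DNA methylation was not measured in these libraries.

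Promoter windows of 4 members that differed strongly between the states are shown because they carry the feature for which this gene class is known, a run of CpG dinucleotides at the start site. They come from RefSeq on GRCh38.p14 and span 250 bases before to 50 bases after the start, 5′ to 3′ on the strand of the gene, with every CpG in capitals. BRDT lies at chr1:91949151-91949450 on the plus strand, MAEL at chr1:166989030-166989329 on the plus strand, SYCP3 at chr12:101739413-101739712 on the minus strand and DAZL at chr3:16605374-16605673 on the minus strand.
BRDT: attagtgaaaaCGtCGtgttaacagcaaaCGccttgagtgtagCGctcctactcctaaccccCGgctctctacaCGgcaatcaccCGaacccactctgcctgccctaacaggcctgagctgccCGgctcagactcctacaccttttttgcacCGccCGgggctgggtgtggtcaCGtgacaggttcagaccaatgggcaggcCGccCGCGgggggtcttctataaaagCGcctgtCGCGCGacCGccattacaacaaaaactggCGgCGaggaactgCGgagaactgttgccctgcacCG
MAEL: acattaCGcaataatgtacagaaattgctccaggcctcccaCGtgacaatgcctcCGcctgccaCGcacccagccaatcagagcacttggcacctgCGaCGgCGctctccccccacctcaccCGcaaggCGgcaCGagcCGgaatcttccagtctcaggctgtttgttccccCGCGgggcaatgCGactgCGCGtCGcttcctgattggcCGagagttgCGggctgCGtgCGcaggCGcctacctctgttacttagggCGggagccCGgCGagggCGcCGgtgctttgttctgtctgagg
SYCP3: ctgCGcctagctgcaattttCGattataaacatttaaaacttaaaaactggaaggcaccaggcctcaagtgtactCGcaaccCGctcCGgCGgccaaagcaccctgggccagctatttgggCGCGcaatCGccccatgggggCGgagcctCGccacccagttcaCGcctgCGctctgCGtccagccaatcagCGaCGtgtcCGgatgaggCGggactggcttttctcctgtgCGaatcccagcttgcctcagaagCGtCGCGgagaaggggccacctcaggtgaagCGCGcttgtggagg
DAZL: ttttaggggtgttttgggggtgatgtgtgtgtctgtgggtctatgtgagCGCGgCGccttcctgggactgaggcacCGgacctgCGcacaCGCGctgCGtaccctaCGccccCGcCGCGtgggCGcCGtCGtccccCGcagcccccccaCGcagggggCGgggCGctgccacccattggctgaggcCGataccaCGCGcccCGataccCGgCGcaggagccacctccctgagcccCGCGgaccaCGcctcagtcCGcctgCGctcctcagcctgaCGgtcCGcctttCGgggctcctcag
The windows hold 23 CpGs in BRDT, 27 in MAEL, 24 in SYCP3 and 33 in DAZL. The median of the 13579 tested names with a window was 25, so BRDT and SYCP3 lay just below it. BRDT, MAEL and SYCP3 had more RNA in naive cells, while DAZL, with the most CpGs of the 4, had more in primed cells.

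The libraries held 46823699 to 54277064 counts each, and 3 counts, the limit that a count of 0 allows, stood for 0.0552 to 0.0613 CPM (counts scaled by library size and TMM factor). All 8 naive markers tested were higher and all 8 primed markers lower in naive libraries. Markers of fibroblasts, the feeder cell type, summed to between 31.8 and 73.6 CPM in naive libraries and to 193 and 211 CPM in the primed ones. Of these 8 fibroblast markers, 5 were lower in naive libraries (62.5%, against 27% of all names). DCN had all naive libraries above both primed ones (0.764 to 1.21 against 0.566 and 0.511 CPM) without passing the test. In 2 of 15 alternative settings 1 of the 8 was called higher. Reads from the mouse feeders were not separated here. Among spermatid genes, 6 of 17 in the table had enough counts to be tested, and 1 of these was higher (16.7%, against 26% of all names).

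As a group, the germline and meiosis genes made up 503 to 619 CPM of each naive library and 94.0 and 103 CPM of the primed ones. Between 22 and 24 of the 38 genes reached 1 CPM in each naive library, against 9 (primed EOS) and 10 (primed CA-p38). In bulk RNA, fewer cells with a transcript and less transcript per cell cannot be told apart. Enough counts for a test were found for 34 genes, of which 19 were higher and 4 lower in naive cells at an adjusted p under 0.05 (quasi-likelihood test of edgeR, Benjamini-Hochberg adjusted over 26497 gene names). Higher genes were 55.9% of those tested, against 26% of all names tested, and lower genes were 11.8%, against 27%. Every naive library lay above both primed ones for 21 of the 34 (61.8%, against 32.9% of all names) and below both for 6 (17.6%, against 32.1%). The median log2 fold change, naive minus primed, was 1.72 for the 34 genes and 0.11 for all names tested. Of the 34 genes, 15 passed the filter on low counts through the naive libraries only, a route that is open to genes high in naive cells. Neither their count nor their part in the median (7.71 for these 15) is thus evidence of a direction. DAZL passed the filter through the primed libraries only, and the same holds for its call in the other direction. The remaining 18 passed it in both groups. Of these, 8 were higher (44.4%, against 25.9% of the 20822 names that passed in both groups) and 3 lower (16.7%, against 30.8%), as a description of genes kept by that rule. The median log2 fold change of these 18 was 0.65, against -0.027 for such names.

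**Figure D1:**
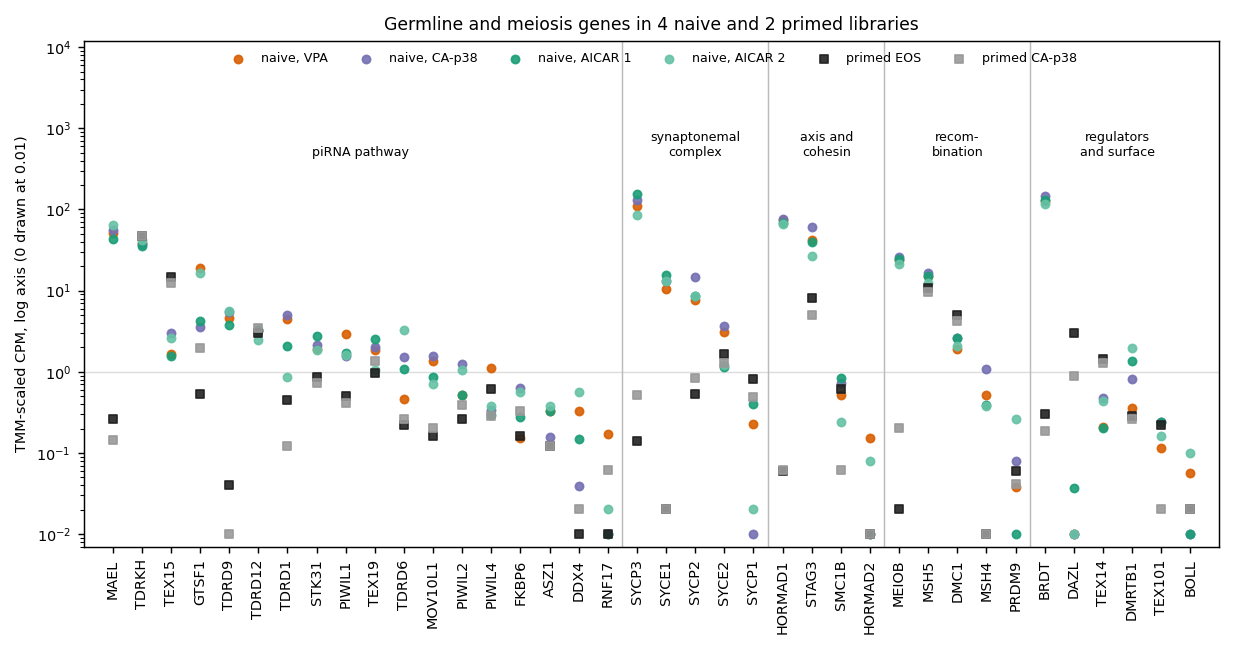
TMM-scaled CPM of the 38 genes in each of the 6 libraries on a log axis, grouped by role, with circles for naive and squares for primed libraries and values of 0 drawn at 0.01. BRDT, SYCP3, HORMAD1, MAEL and MEIOB stand above 20 CPM in all naive libraries and below 1 CPM in both primed ones, while TEX15, DMC1, TEX14 and DAZL have both primed squares above all naive circles.

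Of the 5 synaptonemal complex genes, 3 were higher in naive cells (60%, against 26% of all names tested) and 2 did not pass the test. SYCP3 and SYCE1 passed the filter on low counts through the naive libraries only, so their count is not evidence of a direction. Of the 3 genes that passed it in both groups, 1 was higher (33.3%, against 25.9% of such names). SYCP3, which with SYCP2 forms the lateral element along each chromosome, had 109 CPM in VPA, 131 in CA-p38, 154 in AICAR 1 and 85.0 in AICAR 2, but 0.141 (primed EOS) and 0.511 (primed CA-p38). The groups were far apart, averaging 120 ± 29.4 CPM (SD, n = 4) for naive against 0.326 ± 0.261 CPM (SD, n = 2) for primed cells, with a log2 fold change of 8.51 (SE 0.45, edgeR adjusted p = 2.11e-09). The value was 7.85 without primed EOS and 9.71 without primed CA-p38. SYCP2, its partner, had 7.66 CPM in VPA, 14.8 in CA-p38, 8.70 in AICAR 1 and 8.49 in AICAR 2, against 0.525 (primed EOS) and 0.838 (primed CA-p38). All naive libraries again lay above both primed ones, and the log2 fold change was 3.86 (SE 0.34, edgeR adjusted p = 1.91e-06). SYCE1, a protein of the central element, had 10.6 CPM in VPA, 13.3 in CA-p38, 15.4 in AICAR 1 and 13.1 in AICAR 2, and 1 count in each primed library. It was thus present in every naive library and close to absent in primed cells. Its log2 fold change was 9.16 (SE 0.84, edgeR adjusted p = 2.14e-09), and the ratio of the scaled counts was 644-fold with a 95% counting interval from 178 to 5320.

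SYCP1, the transverse filament that joins the lateral elements across the complex, did not follow them. It had 0.229 CPM in VPA, 0 in CA-p38, 0.405 in AICAR 1 and 0.0201 in AICAR 2, against 0.808 (primed EOS) and 0.490 (primed CA-p38). Every naive library was below both primed ones, but the log2 fold change of -1.96 (SE 1.04) did not pass the threshold (edgeR adjusted p = 0.116). It passed in 4 of 14 alternatives, namely without AICAR 1 (-2.93, edgeR adjusted p = 0.0363), with the parental line as a block (-2.83, 0.0494), with no filter beyond 1 count (-1.98, 0.0265) and with limma-voom (-3.07, adjusted p = 0.0179). SYCE2, another central element protein, ran from 1.16 to 3.62 CPM in naive libraries and was 1.27 and 1.68 CPM in the primed ones, and the groups overlapped (log2 fold change 0.62, edgeR adjusted p = 0.299).

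Some of these reads could belong to neighbours, since whether counting used the strand is not stated. SYCE1 shares exonic sequence with CYP2E1 on the opposite strand, and CYP2E1 moved the same way, at 6.77 ± 2.46 CPM (SD, n = 4) for naive against 0.142 ± 0.0586 CPM (SD, n = 2) for primed cells. SYCP3 overlaps CHPT1 on the opposite strand, which had 33.4 ± 2.04 CPM for naive against 20.5 ± 0.975 CPM for primed cells. The level of SYCP3 in primed libraries was far below that of CHPT1 there. How reads were divided between these pairs was not tested.

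On the meiotic axis, HORMAD1 was the gene with the largest fitted fold change among the members. This HORMA domain protein, which marks unpaired chromosome axes, had 74.4 CPM in VPA, 76.3 in CA-p38, 67.9 in AICAR 1 and 65.5 in AICAR 2. Each primed library held 3 counts of it, or 0.0606 and 0.0613 CPM. The naive libraries were close to each other, 71.0 ± 5.12 CPM (SD, n = 4), and the log2 fold change was 10.13 (SE 0.45, edgeR adjusted p = 1.6e-11). With so few primed counts, the ratio of scaled counts had a 95% counting interval from 535-fold to 3175-fold.

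STAG3, a cohesin subunit used in meiosis, was already present in primed cells. It had 42.1 CPM in VPA, 61.6 in CA-p38, 39.9 in AICAR 1 and 26.8 in AICAR 2, against 8.10 (primed EOS) and 5.03 (primed CA-p38). The groups did not overlap, and the log2 fold change was 2.70 (SE 0.28, edgeR adjusted p = 9.15e-06). Reads shared with the partial copies of STAG3 elsewhere in the genome were not separated here. SMC1B, the meiotic partner of another cohesin subunit, had 0.241 to 0.828 CPM in naive libraries, 0.606 (primed EOS) and 0.0613 (primed CA-p38). The primed libraries thus lay apart, and the log2 fold change of 0.79 (edgeR adjusted p = 0.414) became 3.18 without primed EOS (edgeR adjusted p = 0.0347) and -0.06 without primed CA-p38. HORMAD2, the paralog of HORMAD1, had 8 counts in VPA, 4 in AICAR 2 and 0 in the other libraries, too few to test.

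Genes of meiotic recombination differed in direction. MEIOB, a single-strand DNA binding protein that acts on meiotic breaks, had 23.9 CPM in VPA, 26.3 in CA-p38, 24.5 in AICAR 1 and 21.3 in AICAR 2, against 0.0202 (primed EOS) and 0.204 (primed CA-p38). Naive and primed libraries were well separated, with a log2 fold change of 7.71 (SE 0.52, edgeR adjusted p = 5.26e-09). It was 6.85 without primed EOS and 10.06 without primed CA-p38. FAHD1, which overlaps MEIOB on the opposite strand, did not pass the test (23.7 ± 1.66 CPM for naive against 27.5 ± 8.10 CPM for primed cells, log2 fold change -0.22, edgeR adjusted p = 0.297).

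MSH4 and MSH5 form the heterodimer that stabilizes crossover intermediates. MSH4 had 0.382 to 1.07 CPM in naive libraries and 0 counts in both primed ones, so its naive level was at least 19.2-fold higher, set against 3 counts over the primed group (edgeR adjusted p = 0.000473). MSH5 was expressed in both states, with 15.3 CPM in VPA, 16.7 in CA-p38, 15.2 in AICAR 1 and 12.4 in AICAR 2, against 10.6 (primed EOS) and 9.69 (primed CA-p38). The log2 fold change was 0.55 (SE 0.17, edgeR adjusted p = 0.0185). The call was lost without the CA-p38 naive library (0.48, edgeR adjusted p = 0.0555), without primed EOS (0.61, 0.0606) and without primed CA-p38 (0.49, 0.12), and when identifiers of MSH5 were kept apart (0.48, 0.148). MSH5 shares exons with MSH5-SAPCD1 on its own strand and overlaps CLIC1 on the other, and CLIC1 was lower in naive libraries (log2 fold change -0.84).

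DMC1, the recombinase that pairs a broken strand with the homologous chromosome, was lower in naive cells. It had 1.93 CPM in VPA, 2.59 in CA-p38, 2.59 in AICAR 1 and 2.07 in AICAR 2, against 5.01 (primed EOS) and 4.25 (primed CA-p38). Both primed libraries were above all naive ones, with a log2 fold change of -1.01 (SE 0.27, edgeR adjusted p = 0.00581). Without primed EOS it was -0.90 and the call was lost (edgeR adjusted p = 0.0587). PRDM9, the methyltransferase that places meiotic breaks, had 0 to 13 counts per library and was not tested.

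Of the 18 piRNA pathway genes, 17 were tested, 9 were higher (52.9%, against 26% of all names) and 1 was lower (5.88%, against 27%) in naive cells. Of the 9, DDX4, MAEL, TDRD1, TDRD9 and MOV10L1 passed the filter through the naive libraries only. Their count is thus not evidence of a direction. Of the 10 genes that passed it in both groups, 4 were higher (40%, against 25.9% of such names) and 1 lower (10%, against 30.8%). MAEL, which acts in piRNA-guided silencing of transposons, had the largest fitted fold change of the 9. It had 50.8 CPM in VPA, 55.4 in CA-p38, 43.0 in AICAR 1 and 63.5 in AICAR 2, against 0.263 (primed EOS) and 0.143 (primed CA-p38). Its log2 fold change was 8.02 (SE 0.36, edgeR adjusted p = 2.63e-10). TDRD9, a helicase with a Tudor domain, had 4.56 CPM in VPA, 5.42 in CA-p38, 3.73 in AICAR 1 and 5.59 in AICAR 2, and 2 counts in primed EOS with 0 in primed CA-p38. Both genes were thus nearly absent from primed libraries. For TDRD9 the log2 fold change was 7.73 (SE 0.98, edgeR adjusted p = 2.49e-07), and the ratio of scaled counts had a 95% counting interval from 65.3-fold to 1955-fold. Without primed EOS its remaining primed library held 0 counts, and without primed CA-p38 the log2 fold change was 6.82.

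GTSF1, a cofactor of PIWI proteins, varied 5.27-fold among the naive libraries. It had 18.8 CPM in VPA and 16.3 in AICAR 2 but 3.56 in CA-p38 and 4.18 in AICAR 1, against 0.525 (primed EOS) and 1.94 (primed CA-p38). The AICAR libraries thus stood on different sides of this spread. All naive libraries lay above both primed ones, and the log2 fold change was 3.12 (SE 0.67, edgeR adjusted p = 0.00347). It was 2.45 without primed EOS (edgeR adjusted p = 0.0418) and 4.35 without primed CA-p38.

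Tudor domain proteins, which gather PIWI proteins in granules, split into genes that changed and genes that did not pass the test. TDRD1 had 4.41 CPM in VPA, 5.06 in CA-p38, 2.08 in AICAR 1 and 0.865 in AICAR 2, against 0.444 (primed EOS) and 0.123 (primed CA-p38) (log2 fold change 3.44, SE 0.70, edgeR adjusted p = 0.00172). It was 4.62 without primed EOS and 2.81 without primed CA-p38. TDRD6 had 0.458 CPM in VPA, 1.52 in CA-p38, 1.09 in AICAR 1 and 3.24 in AICAR 2, against 0.222 and 0.266 in the primed libraries (2.68, SE 0.68, edgeR adjusted p = 0.00695). VPA was the lowest naive library for TDRD6 and AICAR 2 the lowest for TDRD1. The log2 fold change of TDRD6 was 2.06 without AICAR 2, and without primed EOS it was 2.54 and not past the threshold (edgeR adjusted p = 0.0539). Limma-voom did not call it either (2.30, adjusted p = 0.0612). PLA2G7, on the strand opposite TDRD6, moved the other way, with a log2 fold change of -3.50.

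TDRKH, which anchors PIWI proteins at mitochondria, had the highest level per kilobase of the 38 genes in primed cells. It ranged from 35.6 to 42.7 CPM in naive libraries and was 47.5 CPM in primed EOS and 46.6 CPM for the other primed library. The naive libraries were all below the primed ones, but the log2 fold change of -0.28 (SE 0.12) missed the threshold (edgeR adjusted p = 0.0655, 0.0415 without AICAR 2, 0.0385 with median-ratio scaling, and 0.0329 by DESeq2). TDRD12 had 2.50 to 3.31 CPM in naive libraries against 3.01 and 3.45 CPM in the primed pair, with overlapping groups and a log2 fold change of -0.08 (SE 0.26). Its sign depended on AICAR 2 and primed CA-p38, since it was 0.01 and 0.03 without them.

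The PIWI genes themselves stayed under 3 CPM in every library. PIWIL1 had 2.88 CPM in VPA, 1.58 in CA-p38, 1.69 in AICAR 1 and 1.61 in AICAR 2, against 0.505 (primed EOS) and 0.409 (primed CA-p38). The log2 fold change was 2.08 (SE 0.40, edgeR adjusted p = 0.00108). PIWIL2 had 0.515 to 1.25 CPM in naive libraries against 0.263 and 0.388 CPM in the primed pair, which did not overlap, and a log2 fold change of 1.34 that did not pass (SE 0.55, edgeR adjusted p = 0.0631). It passed in 5 of 15 alternatives, namely without VPA (1.50, edgeR adjusted p = 0.04), without AICAR 1 (1.50, 0.0471), with library totals (1.45, 0.04997), with the parental line as a block (1.51, 0.0429) and with at least 10 counts in every library (1.37, 0.0327). PIWIL4 had 1.11 CPM in VPA and 0.294 to 0.382 CPM in the other naive libraries, against 0.606 and 0.286 CPM in the primed ones, so the groups overlapped (0.25, edgeR adjusted p = 0.774). Its sign turned without VPA (-0.41) and without primed CA-p38 (-0.18).

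MOV10L1, the helicase that feeds precursor RNA into the pathway, had 1.36 CPM in VPA, 1.56 in CA-p38, 0.865 in AICAR 1 and 0.704 in AICAR 2, against 0.162 and 0.204 CPM for the primed pair (log2 fold change 2.60, SE 0.53, edgeR adjusted p = 0.00143). STK31, a kinase-like protein with a Tudor domain, had 1.93 CPM in VPA, 2.12 in CA-p38, 2.74 in AICAR 1 and 1.83 in AICAR 2, against 0.868 and 0.736 CPM (1.42, SE 0.33, edgeR adjusted p = 0.00405). All naive libraries were above both primed libraries for these genes. DDX4, the helicase also called VASA and a classic germ cell marker, stayed near the limit of detection. It had 17 counts in VPA, 2 in CA-p38, 8 in AICAR 1 and 28 in AICAR 2, against 0 (primed EOS) and 1 (primed CA-p38). Its log2 fold change was 4.42 (SE 1.94, edgeR adjusted p = 0.0238), with a 95% counting interval of the ratio from 4.50-fold to 1052-fold. The call was lost in 4 of 12 alternatives, namely without primed EOS (3.55, edgeR adjusted p = 0.159), without primed CA-p38, which left 0 primed counts (edgeR adjusted p = 0.0655), with the parental line as a block (edgeR adjusted p = 0.0787) and with limma-voom (adjusted p = 0.0975).

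TEX15, which works with PIWI proteins in silencing transposons, was the piRNA pathway gene that was lower in naive cells. It had 1.64 CPM in VPA, 3.01 in CA-p38, 1.58 in AICAR 1 and 2.64 in AICAR 2, against 14.9 (primed EOS) and 12.4 (primed CA-p38). All naive libraries lay below both primed ones, and the log2 fold change was -2.63 (SE 0.28, edgeR adjusted p = 3.83e-06). The remaining piRNA pathway genes did not pass or could not be tested. ASZ1 had 0.158 to 0.382 CPM in naive libraries, FKBP6 0.153 to 0.633 and TEX19 1.07 to 2.52 (log2 fold changes 1.28, 0.73 and 0.67). RNF17 had 0 to 9 counts per library and was not tested.

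Among germ cell regulators, BRDT had the highest level per kilobase in naive cells. This bromodomain protein, which reads acetylated histones in the testis, had 127 CPM in VPA, 145 in CA-p38, 131 in AICAR 1 and 118 in AICAR 2, against 0.303 (primed EOS) and 0.184 (primed CA-p38). The naive libraries were within 1.23-fold of each other, and the log2 fold change was 9.05 (SE 0.27, edgeR adjusted p = 1.6e-11). DMRTB1, a transcription factor of spermatogonia, had 0.363 CPM in VPA, 0.811 in CA-p38, 1.36 in AICAR 1 and 1.95 in AICAR 2, against 0.283 and 0.266 CPM in the primed libraries. The log2 fold change was 2.02 (SE 0.63, edgeR adjusted p = 0.0196), and the call was lost without AICAR 2 (1.62, edgeR adjusted p = 0.0566), without primed EOS (2.05, 0.0875), without primed CA-p38 (1.99, 0.097) and with limma-voom (1.74, 0.0944).

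DAZL, an RNA binding protein that licenses germ cell development, went the other way. It had 147 counts in primed EOS and 43 counts in the other primed library, or 2.97 and 0.879 CPM, and among naive libraries 2 counts in AICAR 1 and 0 in VPA, CA-p38 and AICAR 2. The primed libraries thus differed from each other as well, but both were above all naive ones. Its log2 fold change was -7.32 (SE 1.32, edgeR adjusted p = 1.15e-05), and the ratio of scaled counts, primed over naive, was 199.7-fold with a 95% counting interval from 54.5 to 1661. Without primed EOS the log2 fold change was -6.21, without primed CA-p38 it was -7.94, and without AICAR 1 the naive libraries held 0 counts. Reads shared with relatives of DAZL were not separated here. TEX14, which keeps the bridges between germ cells open, had 0.210 CPM in VPA, 0.475 in CA-p38, 0.202 in AICAR 1 and 0.443 in AICAR 2, against 1.43 (primed EOS) and 1.27 (primed CA-p38) (log2 fold change -2.02, SE 0.50, edgeR adjusted p = 0.00342), and the groups did not overlap. TEX101, a surface protein of germ cells, had 0.115 to 0.239 CPM in naive libraries and 0.222 and 0.0204 CPM in the primed ones (0.62, edgeR adjusted p = 0.608), and its sign turned without primed CA-p38 (-0.23). BOLL, a relative of DAZL, had 0 to 5 counts per library and was not tested.

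**Figure D2:**
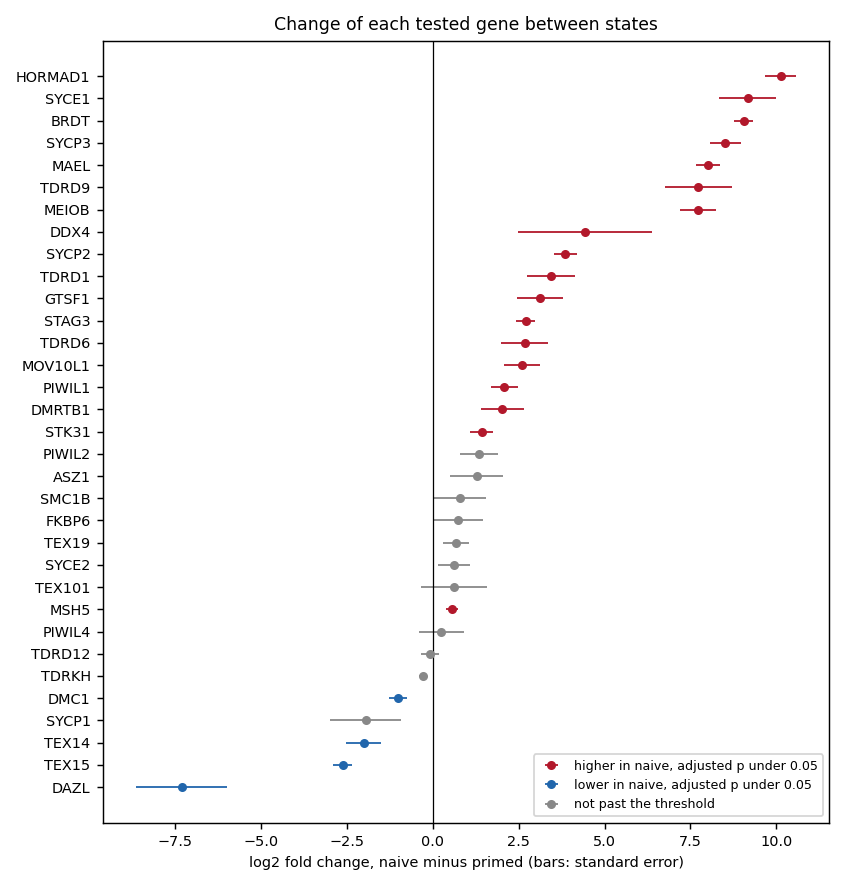
Fitted log2 fold change, naive minus primed, with its standard error for 33 of the 34 tested genes, sorted by size and coloured by call. MSH4 is left out because both primed libraries held 0 counts of it, HORMAD1 stands at the top with 10.13 and DAZL at the bottom with -7.32.

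Levels of different genes were compared per kilobase of the canonical transcript. In naive libraries the highest mean levels were 107 CPM per kilobase for SYCP3, 39.3 for BRDT, 37.3 for HORMAD1 and 30.6 for MAEL. Behind these stood TDRKH with 13.9, GTSF1 with 13.3, MEIOB with 12.8, SYCE1 with 10.4 and STAG3 with 10.1 CPM per kilobase. BRDT and HORMAD1 were within 1 SD of each other, as were TDRKH, GTSF1 and MEIOB. In primed libraries the order was another, with TDRKH at 16.8, MSH5 at 3.74, DMC1 at 2.04, STAG3 at 1.56, GTSF1 at 1.53 and TEX15 at 1.19 CPM per kilobase.

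Set against its own parental primed library, each induction had more genes above than below. Folds here are of CPM with 0.5 CPM added, which shrinks the folds of low genes, and each has 1 primed library behind it, so there is no replicate check and no test. The AICAR mean and the VPA library share primed EOS as their reference. Of the 34 tested genes, 15 passed the filter on low counts through the naive libraries only and 1 through the primed libraries only. The counts below include them and are not evidence of a direction. Of the 34 tested genes, 14 were over 2-fold above primed EOS in AICAR cells (14% of all names were) and 3 over 2-fold below (15% of all names). In VPA cells 14 were above (15% of all names) and 4 below (15.2%). In CA-p38 cells 17 were above primed CA-p38 (13.9% of all names) and 2 below (15.2%). Between the primed libraries, 1 gene was over 2-fold higher in primed CA-p38 (0.445% of all names), namely GTSF1 at 2.38-fold, and 1 was lower (1.21% of all names), namely DAZL, whose fold of primed CA-p38 over primed EOS was 0.397.

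With 0.5 CPM added, the folds of the 3 inductions were close for the genes with the largest folds. These genes had at most 0.511 CPM in the primed libraries. The added 0.5 CPM thus makes up much of their reference and can narrow the spread. BRDT was 156-fold above its reference in AICAR, 158-fold in VPA and 212-fold in CA-p38 cells, HORMAD1 was 120-fold, 134-fold and 137-fold, and SYCP3 was 179-fold, 171-fold and 130-fold. Others varied more. TDRD1 was 1.99-fold above in AICAR, 5.20-fold in VPA and 8.94-fold in CA-p38 cells. GTSF1 was 8.66-fold, 18.8-fold and 1.66-fold above, and STAG3 3.86-fold, 4.96-fold and 11.2-fold. TEX15 was lower in each, with its reference 6.03-fold, 7.19-fold and 3.69-fold above the AICAR, VPA and CA-p38 cells.

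**Figure D3:**
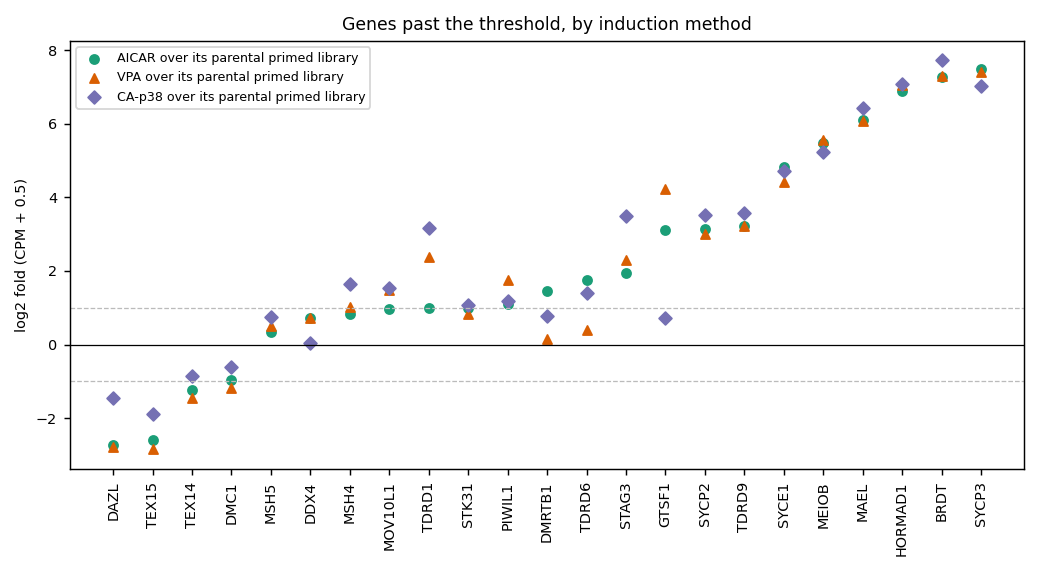
Log2 fold of CPM with 0.5 CPM added for the 23 genes past the threshold, for AICAR (mean of 2 libraries) and VPA over primed EOS and for CA-p38 over primed CA-p38, with dashed lines at 2-fold. The 3 symbols lie close together for BRDT, HORMAD1, SYCP3, MAEL and MEIOB and apart for GTSF1, TDRD1, STAG3 and TDRD6. The genes named as close had at most 0.511 CPM in primed libraries, where the added 0.5 CPM can narrow the spread.

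Whether the naive effect differed between the parental lines was tested as the interaction of state and line, with 2 residual degrees of freedom. None of the 34 genes passed by edgeR's quasi-likelihood test, in which 1 of 26497 names (0.00377%) passed. At an unadjusted p under 0.05 there were 4 by edgeR (GTSF1, MEIOB, SMC1B and STAG3) and, of the same 34, 1 by limma-voom (STAG3), which also called none after adjustment. The share of all names under this unadjusted cut is not given here, so these counts are not evidence of a difference between the lines. For STAG3 the log2 fold change was 1.45 larger in the CA-p38 EOS line (SE 0.41), which did not pass after adjustment (edgeR adjusted p = 0.99994). In the same fit the difference was -3.01 for MEIOB (SE 1.23) and -1.66 for SYCP3 (SE 0.95). It was 0.94 for MAEL (SE 0.76), 0.92 for BRDT (SE 0.51) and 0.12 for HORMAD1 (SE 0.95). None of these passed after adjustment. A difference between the lines that did not pass is not shown to be absent at this number of libraries.

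The other genes of the same pathways were read from lists that did not overlap with the 39 members. Of 18 other piRNA genes, 14 were tested, 9 were higher (64.3%, against 26% of all names) and none lower by edgeR. Before adjustment 1 of the 14 was lower at an edgeR p under 0.05, as were 7700 of all 26497 names. After adjustment DESeq2 called 1 and limma-voom 2 lower. Of the 9 higher genes, 5 passed the filter on low counts through the naive libraries only, so their count is not evidence of a direction. Another 9 of those tested passed it in both groups, and 4 of them were higher (44.4%, against 25.9% of such names). Among the other piRNA genes PLD6, a mitochondrial nuclease of piRNA processing, had a log2 fold change of 5.14, TDRD10 of 3.47 and KIF17, a kinesin, of 2.14. Of 42 other meiosis genes, 37 were tested, 13 were higher (35.1%, against 26% of all names) and 7 lower (18.9%, against 27%). Of these 13, 5 passed the filter through the naive libraries only. Among the 27 that passed it in both groups, 8 were higher (29.6%, against 25.9% of such names), which is near the background. In the same 27, 6 were lower (22.2%, against 30.8%) and the median log2 fold change was -0.002 (-0.027 for such names). SHOC1 and SPATA22, factors of crossover formation and of recombination, had 0 counts in both primed libraries and were at least 67.7-fold and 38.7-fold higher in naive cells, and RNF212, a crossover factor, had a log2 fold change of 3.50. ANKRD31, named after its values were seen, had the lowest log2 fold change of this list (-4.53, edgeR adjusted p = 0.00087), with 8 counts in all naive and 92 in both primed libraries. Among those with at least 1 CPM on average in either group, the lower ones were led by HSF2BP (-1.48), a partner of the recombination machinery, SYCE1L (-1.23), a relative of SYCE1, and TRIP13 (-0.86), the ATPase that removes HORMA domain proteins from chromosome axes. Median log2 fold changes were 1.89 for the other piRNA genes and 0.47 for the other meiosis genes, beside 0.11 for all names tested.

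**Figure D4:**
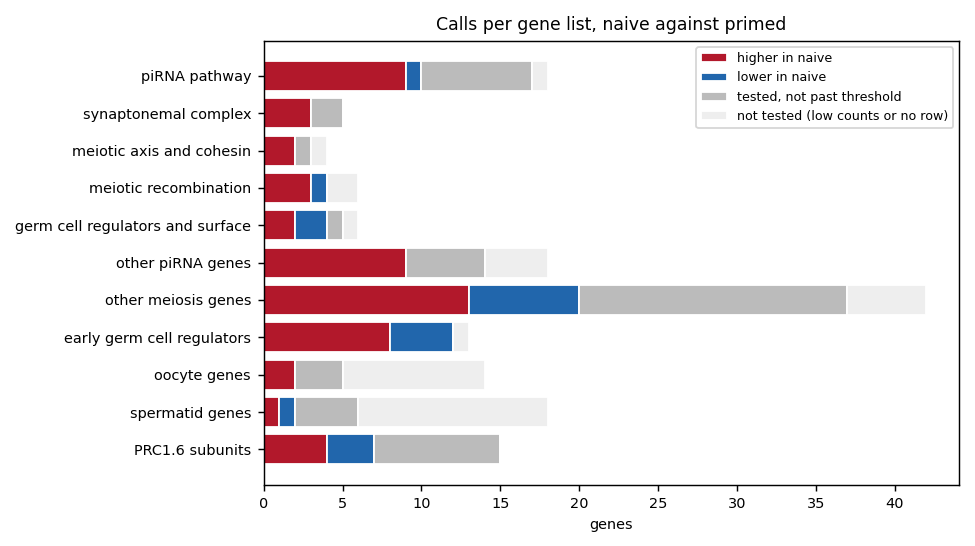
Number of genes higher, lower, not past the threshold or not tested in naive against primed libraries, for the members by role (upper 5 bars) and for other gene lists (lower 6 bars). The piRNA pathway has 9 genes higher and 1 lower of 18, and the germ cell regulators have 2 higher and 2 lower of 6.

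Promoter windows within reach of the canonical start were found for 30 of the 38 genes. The table held no window for HORMAD1, TEX14, PIWIL2, TEX15, TEX19, MEIOB and PIWIL4, and that of DDX4 lay over 500 bases from its canonical start. The windows of the members held a median of 28 CpGs (8 to 44), against 25 for the 13579 tested names with a window. Of the 30, 26 (86.7%) were CpG rich, with an observed over expected CpG ratio of at least 0.6 and at least 50% GC, against 74.8% of tested names. DMRTB1 with 8 CpGs, GTSF1 with 10 and MSH4 with 12 were the sparsest, and each was higher in naive cells. TDRD9 and SYCP2 had 41 each and MOV10L1 44, and these were higher as well. DAZL and DMC1, lower in naive cells, had 33 and 29, inside the range of the genes that were higher.

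**Figure D5:**
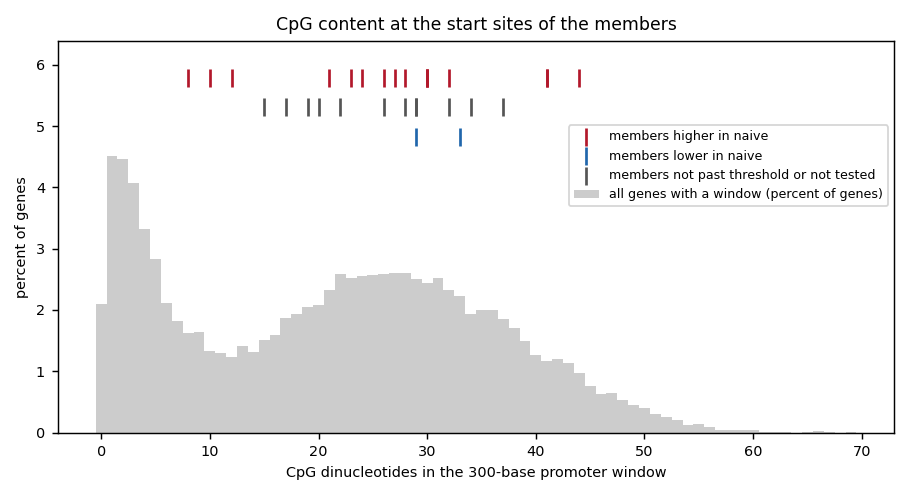
CpG dinucleotides in the promoter window, with grey bars for the percentage of all 17802 genes with a window and ticks for the 30 members by their call. The ticks of the members higher in naive cells run from 8 to 44.

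The sequence CACGTG, which reads the same on both strands and is the core of the E-box bound by MAX and its partners, was in 7 of the 30 windows (23.3%), against 9.46% of tested names and 8.50% of all windows. They were those of BRDT, MAEL, STAG3, STK31, SYCE1 and TDRD1, which were higher in naive cells, and of TDRD12, which did not pass the test. In the printed sequences it stands in BRDT and in MAEL, across a capital CG. GCGGGAAA, a sequence of E2F sites, searched on both strands, was in 2 of the 30 windows (6.67%), those of SYCE2 and SYCP1, against 2.47% of tested names. Neither motif contains the other, and a match describes the sequence and not a bound site.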

How the data were processed

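RNA was sequenced from 4 naive and 2 primed samples. The deposited values are raw counts per Ensembl gene identifier, which the authors made by trimming adapters with cutadapt 1.15 through Trim Galore 0.4.4, mapping with Bowtie2 to Ensembl GRCh38 cDNA and noncoding RNA sequences, and summing alignments. Whether counting used the strand is not stated. Columns of 23 samples from other studies were not used, and 26 spike-in features were left out.

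The members and all other lists were chosen with earlier results of these data known. Counts of identifiers sharing a name were summed. The quasi-likelihood test of edgeR 4.0.16 (R 4.3.3) compared the states after TMM scaling, on names that filterByExpr kept (about 0.195 CPM in at least 2 libraries). P-values were adjusted by Benjamini-Hochberg over 26497 names, and the threshold was 0.05. CPM are TMM-scaled, with factors from 0.936 to 1.06. Counting intervals are exact binomial 95% intervals, and they and the floor of 3 counts cover counting error only. All members past the filter were named. From each other list up to 3 genes per direction with the largest log2 fold change among those past the threshold with at least 1 CPM in either group were named. Marker lists covered naive, primed, fibroblast, spermatid and oocyte genes.

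The tests were checked on simulated data. There edgeR's test of the states recovered 100% of 4-fold and 49% of 2-fold changes. The interaction test recovered 23% of 4-fold and 0% of 2-fold changes. Alternatives were DESeq2 1.42.0 median-ratio factors or library totals as scaling, DESeq2 and limma-voom (limma 3.58.1) as tests, 2 other filters, the parental line as a block, identifiers kept apart, the sum of both AICAR libraries, and every library omitted in turn. Gene positions came from GENCODE on GRCh38. Summaries and plots were made in Python 3.11.15 (pandas 2.3.3, matplotlib 3.10.9), and intervals with scipy 1.17.1.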

Additional observations from a re-analysis of the deposited data

Results flagged for a closer look

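For 5 of the 34 tested genes, 1 of the 4 naive libraries lay far from the other three, measured as its gap to the nearest library divided by the range of the group, which chance alone would give in about 1 of 20 groups. In PIWIL1 the VPA library stood apart with a gap of 0.916 of the range, at 2.88 CPM against 1.58 to 1.69 CPM. VPA was also apart in PIWIL4, with 0.892 of the range, at 1.11 CPM against 0.294 to 0.382 CPM. In SYCP2 the CA-p38 library was high, with 0.854 of the range, at 14.8 CPM against 7.66 to 8.70 CPM. In TDRD12 the AICAR 2 library was low, with 0.870 of the range, at 2.50 CPM against 3.20 to 3.31 CPM. In DAZL the AICAR 1 library had 2 counts and the others 0, which makes the gap 1.0 of the range. With the others tied at 0, any count would give 1.0, so the rate of 1 of 20 does not apply to DAZL.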

How the results depend on the processing

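Of the 23 members past the threshold, 18 stayed past it in all of the 15 alternatives in which they could be tested, and DDX4, TDRD6, MSH5, DMRTB1 and DMC1 lost it in at least 1. None of the 23 changed direction. Asking for at least 10 counts in every library, which removes genes near 0 in primed cells, left 17 members tested, 9 higher (52.9%, against 29.5% of 19813 names), 3 lower (17.6%, against 30.6%), 13 not overlapping and a median log2 fold change of 0.70 (0.056 for all names). The median was 1.57 with limma-voom, 1.36 with no filter beyond 1 count and 1.59 with the AICAR libraries summed. Leaving out 1 library at a time gave a median from 1.50 to 2.23 for the members (0.060 to 0.195 for all names). In tests where a primed library was left out, the lone sample is assumed to vary like the other groups. Of the other piRNA genes, 5 were higher and 1 lower with at least 10 counts in every library, and the lower count was 1 with DESeq2, 2 with limma-voom, 2 with no filter and 0 to 2 without single libraries. With at least 10 counts, 8 of the other meiosis genes were higher. With 2 CPM in place of 0.5 CPM added, 2 members were over 2-fold below primed EOS in VPA, 10 above and 1 below primed CA-p38 in CA-p38 cells, and 0 above and 0 below between the primed libraries. Changes of sign were found only for members not past the threshold, namely TDRD12 (0.021 with library totals, -0.18 to 0.034 over the left-out libraries, above 0 without AICAR 2 and without primed CA-p38), PIWIL4 (-0.41 without VPA, -0.18 without primed CA-p38, up to 0.87 without primed EOS), SMC1B (-0.056) and TEX101 (-0.23), both without primed CA-p38, against 3.18 and 3.05 without primed EOS. Members that gained the threshold in some alternative were TDRKH, PIWIL2, SYCP1 and SMC1B. Beyond the settings whose construction shows the cause, the cause was not tested. With the parental line as a block, 19 members were higher and 5 lower, beside 6514 higher and 6906 lower of 26497 names. Among the members the calls of DDX4, PIWIL2 and SYCP1 changed in that setting. Replicate numbers follow accession order and pair no libraries. Each parental line had 1 primed library, and 3 counts set the lowest level that could be told from 0.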

Other observations

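Early germ cell regulators, which act when germ cells are set aside in the embryo, all differed between the states, 8 of the 12 tested being higher (66.7%, against 26% of all names) and 4 lower (33.3%, against 27%) in naive cells. DPPA3, a maternal factor that also serves as a naive marker, had 342 to 427 CPM in naive libraries against 0.470 and 0.666 CPM for the primed pair (log2 fold change 9.39, SE 0.21). SOX15 (6.40) and UTF1 (5.45) were the next highest among those named. SOX17, a factor that specifies human primordial germ cells, was lower at 0.201 to 0.376 CPM against 1.56 (primed EOS) and 4.86 (primed CA-p38) (-3.50). KIT (-2.20) and LIN28A (-1.73) were lower as well. Other early regulators of the list went the other way from SOX17, namely TFAP2C (4.43), PRDM1 (4.43) and PRDM14 (2.15), named after their values were seen. The summed level of these 13 genes was 1355 to 1476 CPM in naive and 1194 and 1456 CPM in primed libraries.

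Genes of late gametes were mostly too low to test. Of 14 oocyte genes, 5 were tested and 2 were higher (40%, against 26% of all names). These were the oocyte transcription factors LHX8 (4.19) and SOHLH2 (4.25). Of 17 spermatid genes in the table, 6 were tested, with ODF2 higher (0.58) and TSSK6 lower (-1.33). Each was 16.7% of those tested, against 26% higher and 27% lower of all names.

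PRC1.6 is a Polycomb complex known for silencing germline genes in stem cells. All 15 of its subunits were tested, with 4 higher (26.7%, against 26% of all names), 3 lower (20%, against 27%) and 8 not past the threshold, so the share that was higher was at the background. The subunits higher in naive cells were led by PCGF6, at 41.8 to 56.9 CPM against 19.9 and 20.6 CPM (log2 fold change 1.36, SE 0.14), WDR5 (1.03) and RING1 (0.59). HDAC2 (-0.94), RNF2 (-0.87) and TFDP1 (-0.75) were lower. Whether any of these levels bears on the germline genes was not tested.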
